A study of Mus musculus with 24 samples.

Results

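Basophils and mast cells are granulocytes of allergy and of the defence against worms. Both carry the high-affinity IgE receptor, whose crosslinking by antigen releases stored proteases and histamine and starts the synthesis of leukotrienes. Basophils mature in the bone marrow and circulate through the spleen, whereas mast cells finish their maturation in tissues under the ligand of the receptor KIT. The 8 genes described here, chosen by their symbols from 54446 Ensembl identifiers, are markers of these lineages: the granule proteases Cpa3, Mcpt8 and Prss34, the IgE receptor subunits Fcer1a and Ms4a2, the transcription factor Gata2, the growth factor receptor Kit and the 5-lipoxygenase gene Alox5. They were picked with their difference between Aim2-/- and WT libraries, and their presence after 24 h of culture, already known from these data. Their own values are therefore a description with no test. The tests below concern 31 other basophil and mast cell genes and a set of marker lists.

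Splenic CD4+ T cells were enriched by immunomagnetic negative selection from C57BL6 mice that were wild type (WT) or lacked Aim2, a sensor of cytosolic DNA (Aim2-/-). WT mice 1, 3 and 4 and Aim2-/- mice 1, 2 and 4 each gave a library of unstimulated cells (0 h) and libraries after 3, 6 and 24 h with anti-CD3/CD28 antibodies, so that 24 stranded mRNA libraries fell into 8 groups of 3 mice. The methods describe the Aim2-/- mice as deficient in AIM2, with a stock number of Jackson Laboratories but no name of the allele. They describe the animals as sex- and age-matched without giving the age. Selection was by depletion of other cells, with no sort described for these libraries. The methods give a lower bound for the purity of cells enriched in this way, which leaves room for other cells. The paper with these methods reports sequencing of naive CD4+ T cells and of cells in Treg conditions, not of this time course. Its details of mice and purity are assumed to hold here. Totals ranged from 19715161 to 21627018 counts per library. Values are given as CPM, counts scaled to a common library size with TMM factors, in which 3 counts came to between 0.129 and 0.155 CPM. All 8 genes passed the filter on low counts, as 15325 genes did.

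The targeted gene did not follow its label in every library. At 0 h Aim2 stood at 75.0 and 67.5 CPM in WT mice 3 and 4, at 21.5 CPM in the mouse labelled WT 1, and at 15.7, 20.1 and 19.0 CPM in Aim2-/- mice 1, 2 and 4. After 24 h that mouse measured 5.57 CPM, within the 5.28 to 7.15 CPM of the Aim2-/- mice. The member genes cannot check its label, since they were chosen with this mouse counted as WT. Here WT means the label, and each member's genotype difference at 0 h is given with and without this mouse. The labelled cell type was present in both genotypes: the summed level of 6 CD4 T cell markers (Cd3d, Cd3e, Cd3g, Cd4, Cd5 and Cd28) ranged from 3286 to 3556 CPM in the unstimulated Aim2-/- libraries and from 3228 to 3307 CPM in the WT ones.

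The promoters of 4 members are shown because GATA factors are known regulators of basophil and mast cell genes. These 4 were picked from the members with a match to the GATA motif. Whether the motif bears on the members' levels was not tested. The GATA motif was searched as AGATAA, also with T as its first letter, with G as its last letter or with both, on both strands and in the 250 bases before the RefSeq start site (GRCm38.p6). All 8 members were found in the RefSeq promoter table. The motif occurred before 5 of them (Cpa3, Prss34, Fcer1a, Ms4a2 and Alox5), and in none of the windows of Mcpt8, Gata2 and Kit. Counted by window, it occurred in 5 of the members' 10 windows and in 26.5% of all 32851 windows of this length. Whether these shares differ was not tested. A match is a description of the letters and not of a bound site. The sequences below read 5′ to 3′ on the strand of the gene, with the motif or its reverse complement in capitals. They lie on the minus strand at chr3:20242182-20242431 (Cpa3), chr1:173227230-173227479 (Fcer1a) and chr19:11623720-11623969 (Ms4a2), and on the plus strand at chr17:25298144-25298393 (Prss34).
Cpa3: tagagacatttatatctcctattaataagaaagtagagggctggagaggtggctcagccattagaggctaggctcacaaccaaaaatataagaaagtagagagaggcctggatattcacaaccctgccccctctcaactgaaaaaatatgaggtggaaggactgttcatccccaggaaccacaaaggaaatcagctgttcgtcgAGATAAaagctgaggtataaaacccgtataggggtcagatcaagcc
Prss34: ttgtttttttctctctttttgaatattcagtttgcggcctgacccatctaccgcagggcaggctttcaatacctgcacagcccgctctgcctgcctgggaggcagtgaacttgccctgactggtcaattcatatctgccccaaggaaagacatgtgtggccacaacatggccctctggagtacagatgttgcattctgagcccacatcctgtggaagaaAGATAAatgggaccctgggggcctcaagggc
Fcer1a: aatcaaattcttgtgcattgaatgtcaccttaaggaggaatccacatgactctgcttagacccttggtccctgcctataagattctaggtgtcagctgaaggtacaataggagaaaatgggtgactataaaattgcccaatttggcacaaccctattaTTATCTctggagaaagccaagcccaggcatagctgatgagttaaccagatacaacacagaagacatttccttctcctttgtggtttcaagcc
Ms4a2: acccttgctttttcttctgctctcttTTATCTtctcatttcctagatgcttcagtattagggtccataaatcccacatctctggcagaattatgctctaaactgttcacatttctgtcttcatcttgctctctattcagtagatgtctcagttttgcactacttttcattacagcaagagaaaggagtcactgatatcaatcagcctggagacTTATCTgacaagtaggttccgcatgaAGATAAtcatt
The match began 46 bases before the start site of Cpa3, 31 before that of Prss34 and 92 before that of Fcer1a, and Ms4a2 had 3 matches, 224, 37 and 11 bases before it.

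At 0 h, 7 of the 8 genes were higher in every Aim2-/- mouse than in every WT mouse, and Kit alone overlapped. The same 7 genes were separated at 3, 6 and 24 h. Over all genes tested, the Aim2-/- libraries lay wholly above WT for 14.1% in unstimulated cells, and for 7.8%, 18.6% and 11.1% after 3, 6 and 24 h. Since the genes were chosen for this contrast, nothing is read from the comparison of these shares. The median fitted log2 difference of the 8 genes was 2.75 in unstimulated cells and 2.74, 2.43 and 2.95 after 3, 6 and 24 h. The medians over all genes tested were -0.01, 0.00, 0.05 and 0.01. In bulk RNA, a larger number of cells of a type and more RNA per cell cannot be told apart.

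**Figure D1:**
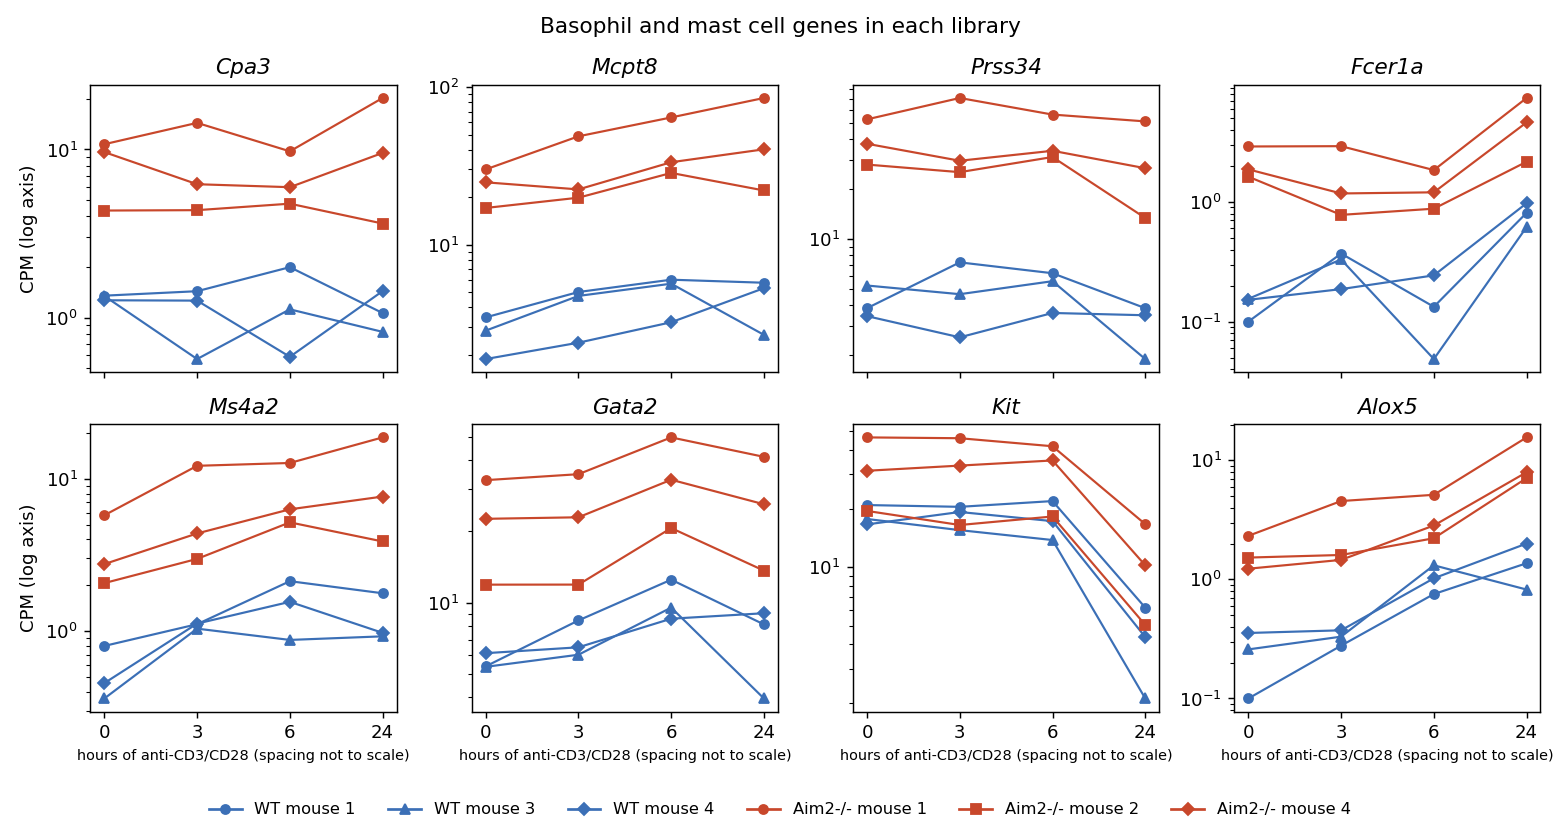
CPM on a log axis against hours of anti-CD3/CD28 for each of the 8 genes, with 1 point per library and 1 line per mouse. In all panels but that of Kit the 3 Aim2-/- mice lie above the 3 WT mice at every time, with Aim2-/- mouse 1 on top.

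The granule proteases come first. Mcpt8 (ENSMUSG00000022157, chromosome 14, 56082166 to 56085273, minus strand, GRCm38), mast cell protease 8, is despite its name a marker of mouse basophils. It stood at 30.0, 17.1 and 24.9 CPM in Aim2-/- mice 1, 2 and 4 at 0 h and at 3.45, 2.84 and 1.88 CPM in WT mice 1, 3 and 4. Every Aim2-/- value was thus well above the highest WT value. The fitted difference was 3.14 ± 0.51 (log2, SE, n = 3 mice a group), and 3.34 without the mouse labelled WT 1. At 24 h Mcpt8 measured 85.3, 22.1 and 40.3 CPM in the Aim2-/- mice and 5.73, 2.67 and 5.29 CPM in the WT mice, a difference of 3.43 ± 0.49. The SD between the Aim2-/- mice was 6.51 CPM at 0 h and 32.6 CPM at 24 h. In between, the Aim2-/- mice measured 48.7, 19.9 and 22.4 CPM at 3 h and 64.2, 28.5 and 33.3 CPM at 6 h, and the highest WT value was 5.99 CPM.

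Prss34 (ENSMUSG00000056399, chromosome 17, 25298394 to 25300165, plus strand) encodes a serine protease of mouse basophil granules. Its values at 0 h were 52.8, 28.2 and 37.7 CPM in Aim2-/- mice and 3.85, 5.27 and 3.45 CPM in WT mice, a fitted log2 difference of 3.24 ± 0.49 (3.18 without the mouse labelled WT 1). At 24 h they were 51.4, 13.5 and 26.8 CPM against 3.85, 1.90 and 3.49 CPM, a difference of 3.31 ± 0.50. The Aim2-/- and WT mice stayed apart at each time, while the 0 h and 24 h values of a genotype overlapped. Prss34 lies among tryptase genes on chromosome 17 and Mcpt8 among the chymase and granzyme genes on chromosome 14. Reads shared with near-identical relatives may have been counted unevenly in both.

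Cpa3 (ENSMUSG00000001865, chromosome 3, 20215620 to 20242181, minus strand) encodes mast cell carboxypeptidase A, which mast cells, basophils and their progenitors express. It measured 10.8, 4.33 and 9.65 CPM in the Aim2-/- mice at 0 h, and 1.35, 1.34 and 1.27 CPM in the WT mice. The fitted difference was 2.64 ± 0.58, and 2.65 without the mouse labelled WT 1. At 24 h the Aim2-/- mice were at 20.3, 3.63 and 9.54 CPM and the WT mice at 1.06, 0.822 and 1.44 CPM, a difference of 3.32 ± 0.60. The direction over time turned on Aim2-/- mouse 1: the log2 difference of 24 h and 0 h in Aim2-/- cells was 0.43 with it and -0.09 without it.

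The IgE receptor subunits had lower counts. Fcer1a (ENSMUSG00000005339, minus strand) encodes the IgE-binding alpha chain. It had 60, 33 and 38 counts at 0 h in Aim2-/- mice 1, 2 and 4 (2.91, 1.62 and 1.87 CPM), and 2, 3 and 3 counts in WT mice 1, 3 and 4. The WT libraries were therefore at or under the floor of 3 counts, and the ratio is best given on summed counts, 131 in Aim2-/- against 8 in WT. It was 15.8-fold, with an exact conditional binomial 95% interval of 7.78 to 37.3 that covers counting error only. The fitted log2 difference, 3.92, depends on the prior count and was 3.75 without the mouse labelled WT 1. The ratio of summed counts was 5.60 at 3 h (3.42 to 9.66) and 9.33 at 6 h (4.69 to 21.1). At 24 h the values were 7.39, 2.17 and 4.62 CPM in Aim2-/- mice against 0.811, 0.617 and 0.975 CPM in WT mice, where the fitted log2 difference was 2.55 ± 0.49. Fcer1a lies on chromosome 1 (173221284 to 173227214, GRCm38), 123.7 kb from Aim2.

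Ms4a2 (ENSMUSG00000024680, chromosome 19, 11615523 to 11623719, minus strand) encodes the beta chain of the IgE receptor, which amplifies its signal. Its level at 0 h was 5.76, 2.07 and 2.76 CPM in the Aim2-/- mice and 0.800, 0.362 and 0.456 CPM in the WT mice, a log2 difference of 2.69 ± 0.65 (3.09 without the mouse labelled WT 1). At 24 h it was 18.7, 3.88 and 7.64 CPM against 1.77, 0.925 and 0.975 CPM, a difference of 3.03 ± 0.60. The 3 h and 6 h levels were 12.2, 2.98 and 4.38 CPM and 12.7, 5.18 and 6.30 CPM in the Aim2-/- mice, again with mouse 1 far above the others. In each of the 6 mice the 24 h value was above the 0 h value, between 1.88 and 3.24 times in Aim2-/- mice and between 2.14 and 2.56 times in WT mice.

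Gata2 (ENSMUSG00000015053, chromosome 6, 88193891 to 88207032, plus strand), a transcription factor needed by blood stem cells, mast cells and basophils, had the smallest difference of the 7 separated genes at 0 and 24 h. It measured 32.8, 11.9 and 22.5 CPM in Aim2-/- mice at 0 h and 5.40, 5.38 and 6.14 CPM in WT mice. The fitted log2 difference was 1.99 ± 0.44 at 0 h (1.96 without the mouse labelled WT 1) and 1.93 ± 0.44 at 24 h. At 24 h the Aim2-/- mice measured 41.1, 13.7 and 26.0 CPM and the WT mice 8.11, 3.96 and 9.03 CPM, so that Aim2-/- mouse 2 lay closest to the WT range.

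Kit (ENSMUSG00000005672, chromosome 5, 75574916 to 75656722, plus strand), the receptor of stem cell factor, is borne by mast cells and by progenitors. It stood at 46.5, 19.4 and 31.3 CPM in Aim2-/- mice 1, 2 and 4 at 0 h and at 20.9, 17.7 and 16.6 CPM in WT mice 1, 3 and 4. Aim2-/- mouse 2 lay within the range of the WT mice. The log2 difference was 0.82 ± 0.42, and it was 0.92 without the mouse labelled WT 1 and 0.47 without Aim2-/- mouse 1. At 24 h the values were 16.6, 5.04 and 10.2 CPM against 6.18, 2.11 and 4.36 CPM, and the groups again overlapped.

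Alox5 (ENSMUSG00000025701, chromosome 6, 116410077 to 116461178, minus strand), the enzyme that opens leukotriene synthesis from arachidonic acid, was the least abundant member per kb at 0 h. Its values were 2.32, 1.53 and 1.23 CPM in Aim2-/- mice and 0.100, 0.258 and 0.355 CPM in WT mice, with between 2 and 7 counts in a WT library. The fitted log2 difference was 2.80 ± 0.57 (2.44 without the mouse labelled WT 1). At 24 h the Aim2-/- mice were at 15.6, 7.10 and 7.95 CPM and the WT mice at 1.37, 0.822 and 2.00 CPM, a difference of 2.87 ± 0.47. The 6 h difference, 1.72 ± 0.47, was the smallest of the 4 times.

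**Figure D2:**
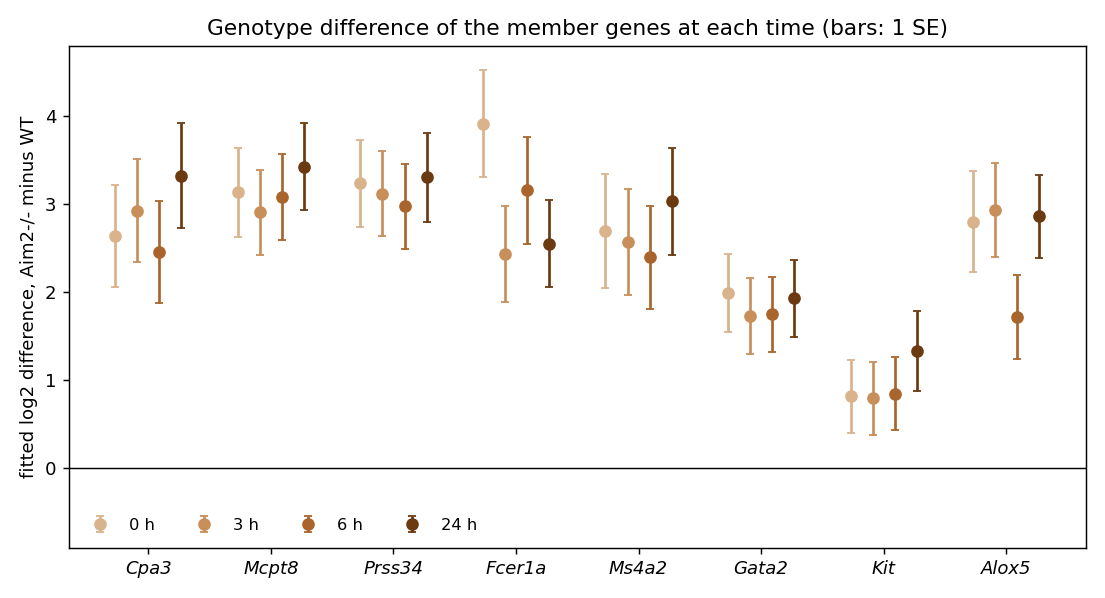
Fitted log2 difference, Aim2-/- minus WT, of each gene at 0, 3, 6 and 24 h, with bars of 1 SE. The points of the 3 proteases lie between 2.46 and 3.43 at all times, those of Gata2 between 1.73 and 1.99 and those of Kit between 0.80 and 1.33.

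The order of the mice was nearly the same in every gene. Aim2-/- mouse 1 was the highest of its genotype in all 32 combinations of gene and time, and mouse 2 the lowest in 30 of them. Without mouse 1 the fitted difference at 0 h was 2.95 for Mcpt8, 2.98 for Prss34, 2.40 for Cpa3, 2.15 for Ms4a2, 1.62 for Gata2 and 2.51 for Alox5. Each was smaller than with it. Among WT mice the order was looser: mouse 1 was the highest in 20 of the 32 combinations, mouse 4 in 9 and mouse 3 in 3. Over the 24 libraries, which come from 6 mice, the deviations of the log2 levels from the mean of the time point correlated with a Pearson r between 0.77 and 0.99 over the 28 pairs of members, with a median of 0.94. Within the 12 Aim2-/- libraries the median was also 0.94 and the range 0.82 to 0.99. Those 12 libraries come from only 3 mice, in nearly the same order throughout. Genes of other lists varied in their r with the members' mean standardised level there. It was 0.97 for Csf2 and 0.962 for Gzma, but 0.027 for Cd4 and -0.334 for Eomes. Over the 24 libraries, which include the genotype difference used to choose the genes, Mcpt8 and Prss34 had the highest r and Kit and Alox5 the lowest. Within the Aim2-/- libraries Gata2 and Kit had the highest r and Kit and Alox5 again the lowest.

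Compared per length of exons, the unstimulated Aim2-/- level was 32.4 ± 10.2 CPM per kb for Prss34 (SD, n = 3) and 24.0 ± 6.53 for Mcpt8. These values overlapped within their SDs. Both lay above Cpa3 (5.43 ± 2.26), Gata2 (4.15 ± 1.93) and Kit (3.64 ± 1.52), which did not differ from each other beyond their SDs. Fcer1a (2.14 ± 0.681) followed, within the SDs of Kit, and then Ms4a2 (1.25 ± 0.698), within those of Fcer1a. Alox5 (0.413 ± 0.138) was last, below Ms4a2 by slightly more than their SDs. In WT cells the order began with Prss34 (3.43 ± 0.785), Mcpt8 (2.73 ± 0.796) and Kit (2.06 ± 0.249), and ended with Alox5 (0.0579 ± 0.0314).

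Over 24 h of culture the members went different ways. Alox5 at 24 h stood at 6.71, 4.65 and 6.46 times its 0 h level in Aim2-/- mice 1, 2 and 4, and at 3.18 and 5.64 times in WT mice 3 and 4, while the mouse labelled WT 1 had 2 counts at 0 h, too few for a ratio. Kit at 24 h stood at 0.358, 0.259 and 0.326 times its 0 h level in the Aim2-/- mice and at 0.296, 0.119 and 0.263 times in the WT mice. Within each Aim2-/- mouse Mcpt8 (2.84, 1.29 and 1.62 times), Fcer1a (2.54, 1.33 and 2.47 times) and Gata2 (1.25, 1.15 and 1.15 times) were also higher at 24 h than at 0 h, and Prss34 (0.972, 0.477 and 0.713 times) was lower. In WT mice 1, 3 and 4 the ratios were 1.66, 0.940 and 2.82 for Mcpt8 and 1.501, 0.736 and 1.47 for Gata2, with mouse 3 below 1 in both. Set side by side without regard to the mouse, the 24 h and 0 h values of Aim2-/- cells did not overlap for Alox5, which was above, and Kit, which was below. In the WT cells Alox5, Ms4a2 and Fcer1a were above without overlap and Kit below. Of all genes tested, 37.3% were higher without overlap and 33.6% lower in Aim2-/- cells, and 39.3% and 37.3% in WT cells. The lower value of Kit appeared between 6 and 24 h: its mean in Aim2-/- cells was 32.4 CPM before stimulation and 31.9, 31.8 and 10.6 CPM after 3, 6 and 24 h. The mean of Alox5 in the same cells was 1.69, 2.54, 3.40 and 10.2 CPM at the successive times. Gata2 was highest at 6 h in every mouse but WT mouse 4, with means of 34.4 CPM in Aim2-/- and 10.2 CPM in WT cells. The means of Mcpt8 in Aim2-/- cells were 24.0, 30.3, 42.0 and 49.2 CPM at the successive times.

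Taken as a sum, the 8 genes kept 139%, 82.3% and 101% of their 0 h CPM at 24 h in Aim2-/- mice 1, 2 and 4, and 80.4%, 41.5% and 91.0% in WT mice 1, 3 and 4. Kit, which fell in both genotypes, had a mean of 18.4 CPM at 0 h in WT cells, where the sum ranged from 30.3 to 35.9 CPM. In Aim2-/- cells its mean was 32.4 CPM, where the sum ranged from 86.2 to 184 CPM. Kit was thus a larger part of the WT sum, and the percentages of the 2 genotypes are not compared. The sum of 10 neutrophil markers kept 33.1%, 11.4% and 18.9% in the same Aim2-/- mice, and the sum of CD4 T cell markers 68.7%, 71.9% and 73.1%. Other lists kept more: megakaryocyte markers 106%, 54.0% and 94.8%, erythroid markers 76.0%, 153% and 71.1%, and eosinophil markers 156%, 59.7% and 61.3%. Gene by gene in Aim2-/- mice, over genes with more than 3 counts at 0 h in all 3 mice, the geometric mean ratio of 24 h and 0 h had a median of 1.497 over the 8 members, with 6 above 1. It had a median of 0.607 over 20 other basophil and mast cell genes, with 5 above 1, and of 0.115 over 10 neutrophil markers, with 0 above 1. A gene without a count at 24 h in a mouse entered with a ratio of 0, which held for 2 of these 20 genes, Ccr3 and Mcpt4, and for 3 of the neutrophil markers. Megakaryocyte markers had a median of 1.30, erythroid markers of 0.797 and 2 eosinophil markers of 0.702. The members were chosen with their level at 24 h in view, so these medians carry no test.

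**Figure D3:**
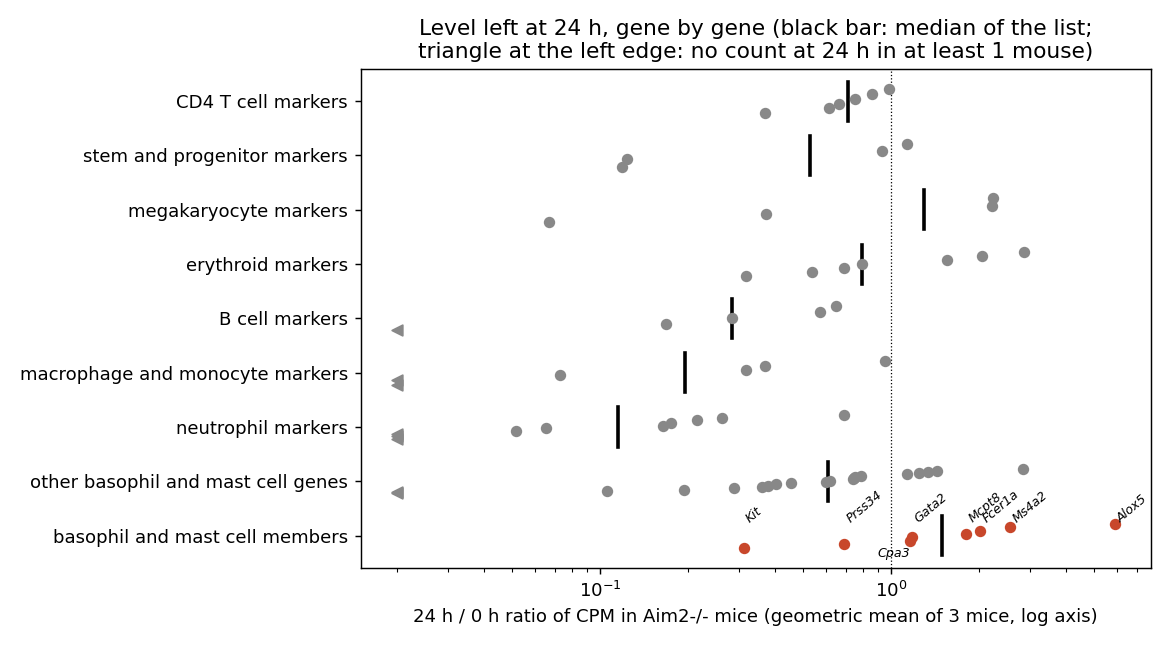
Ratio of CPM at 24 h and 0 h in Aim2-/- mice, geometric mean of 3 mice on a log axis, 1 point per gene, with the median of each list as a black bar. Members run from 0.311 (Kit) to 5.87 (Alox5), and the neutrophil markers reach at most 0.688. Triangles at the left edge mark genes with no count at 24 h in at least 1 mouse.

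The 31 other genes of basophils and mast cells, which the choice of members did not name, were tested within the fit of all genes (edgeR quasi-likelihood test, Benjamini-Hochberg adjustment over 15325 genes). The list was drawn up with earlier results of these data known. Of the 31, 19 passed the filter. At 0 h 5 were higher in Aim2-/- cells and none lower, where 3.24% and 1.99% of all genes were. The 5 were Alox5ap, whose product presents arachidonic acid to 5-lipoxygenase (log2 difference 2.43 ± 0.60, edgeR adjusted p = 0.0279), Csf2rb2 and Csf2rb, beta chains of the IL-3 receptor (2.34 ± 0.51, adjusted p = 0.017, and 2.16 ± 0.49, adjusted p = 0.0192), Slc18a2, which loads histamine into granules (2.29 ± 0.54, adjusted p = 0.0236), and, outside the 4 largest and named after its value was seen, Hdc, which makes histamine (1.64 ± 0.34, adjusted p = 0.0123). The median over the 19 was 1.25, and 14 had an unadjusted p under 0.05. The count changed when single mice were left out: it was 0 without WT mouse 4 or Aim2-/- mouse 4 (8 and 10 at an unadjusted p under 0.05), 1 without WT mouse 3 and 12 without Aim2-/- mouse 2, and 4 without the mouse labelled WT 1. Leaving out a mouse also makes its group smaller, and the part of each was not tested.

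At 6 h 7 of the 19 were higher in Aim2-/- cells and none lower, with 8.78% of all genes higher and 7.01% lower. Itga2b (1.51 ± 0.36, edgeR adjusted p = 0.0145), the integrin alpha-IIb of megakaryocytes and of mast cell and basophil progenitors, and Ccr3 (1.87 ± 0.45, adjusted p = 0.0148), the eotaxin receptor of eosinophils and basophils, were called beside the 5 genes of the 0 h comparison. The count was 6 without the mouse labelled WT 1, 1 without Aim2-/- mouse 1, 11 without Aim2-/- mouse 2, and 0 without WT mouse 3, WT mouse 4 or Aim2-/- mouse 4 (9, 8 and 11 at an unadjusted p under 0.05).

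At 24 h Slc18a2 (2.84 ± 0.57, edgeR adjusted p = 0.0264) and Itga2b (1.79 ± 0.37, adjusted p = 0.0317) were higher in Aim2-/- cells, with 0.659% of all genes higher and 0.00653% lower. Slc18a2 measured 12.03, 2.92 and 5.95 CPM in the Aim2-/- mice and 1.52, 0.308 and 1.08 CPM in the WT mice, which did not overlap. Both calls held without the mouse labelled WT 1, but none of the list was called without WT mouse 3, WT mouse 4, Aim2-/- mouse 1 or Aim2-/- mouse 4 (11, 14, 10 and 14 at an unadjusted p under 0.05), and 14 were called without Aim2-/- mouse 2. At 24 h limma-voom and a fit of the 2 groups alone called none either. At 3 h the edgeR test called 0 of the 19, with 10 at an unadjusted p under 0.05, against 5 in DESeq2 and 0 in limma-voom. The shares of all genes called at 3 h were 0.254% higher and 0.0392% lower. Without Aim2-/- mouse 2, 8 of the list were called at 3 h. The median log2 difference of the list was 0.89 at 3 h, 1.04 at 6 h and 1.67 at 24 h.

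**Figure D4:**
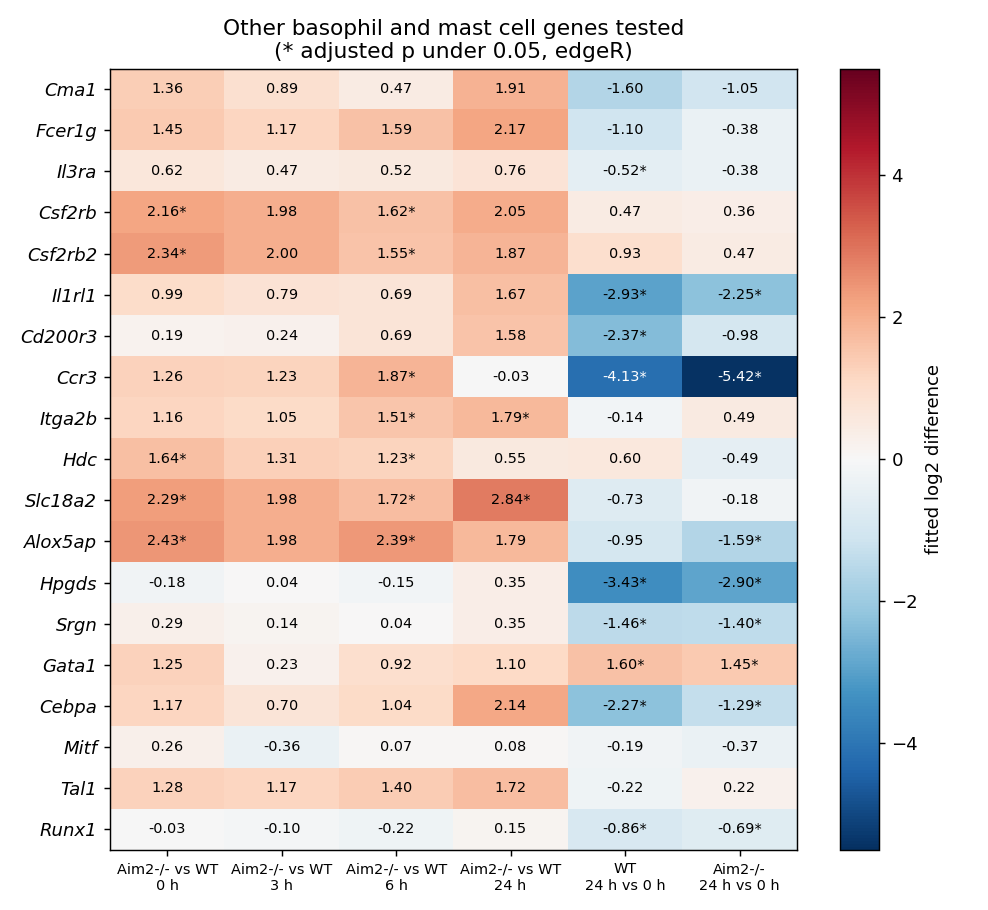
Fitted log2 differences of the 19 other basophil and mast cell genes tested, 1 row per gene, in the 4 comparisons of genotype and the 2 comparisons of time, with an asterisk where the edgeR adjusted p was under 0.05. The calls between genotypes are all on the higher side, and most calls over time are on the lower side.

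By role, the calls between genotypes fell on receptors and mediators. Of the 5 transcription factors listed (Gata1, Cebpa, Mitf, Tal1 and Runx1) none was called by edgeR in any of the 4 comparisons, with 3, 1, 2 and 3 at an unadjusted p under 0.05 after 0, 3, 6 and 24 h. The largest log2 difference among them at 0 h was 1.28 ± 0.54 for Tal1. Of the 9 listed proteases of mast cells in connective and mucosal tissue, 8 were too low to be tested. Their counts are given here after their values were seen. Mcpt9 had no count in any library, Cma2 at most 1, Tpsg1 at most 2, Mcpt2 at most 5, Mcpt1 at most 6, Mcpt4 at most 11, Tpsb2 at most 13 and Tpsab1 at most 17. Mrgprb2, a receptor of connective tissue mast cells, had no count either. The list's single tested protease, the chymase Cma1 of connective tissue mast cells, reached 100 counts in a library and was not called, with a log2 difference of 1.36 at 0 h.

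The same genes over time showed mostly lower values. In WT cells 1 of the 19 rose between 0 and 24 h and 8 fell, with 36.6% of all genes higher and 34.8% lower. In Aim2-/- cells 1 rose and 7 fell, with 36.8% and 33.5% of all genes. Gata1, the erythroid and megakaryocyte factor that mast cells and basophils also use, rose in both (1.596 ± 0.38 in WT, edgeR adjusted p = 0.000869, and 1.45 ± 0.36 in Aim2-/-, adjusted p = 0.0012). Genes that fell in both included Hpgds, the prostaglandin D2 synthase (fell by 3.43 ± 0.48 and by 2.90 ± 0.47), and Il1rl1, the IL-33 receptor (fell by 2.93 ± 0.43 and by 2.25 ± 0.40). Cd200r3, an activating receptor of basophils and mast cells, was among the 4 largest falls in WT cells (fell by 2.37 ± 0.54), and Alox5ap among those in Aim2-/- cells (fell by 1.59 ± 0.57). Whether the genotypes differ in these changes was not tested. Ccr3 fell as well, to 3 counts in all at 24 h in each genotype. Its ratio to 0 h on summed counts was 0.0512 in WT (exact conditional binomial 95% interval 0.0103 to 0.157) and 0.0209 in Aim2-/- cells (0.00426 to 0.0623). Il1rl1 is also expressed by some T cells, the bulk of these samples. With the mouse as a block, within the libraries of the genotype, 16 of the 19 were called in Aim2-/- cells (4 higher, 12 lower) in place of 8.

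Markers of other cell types differed with genotype too. Called higher in Aim2-/- cells at 0 h were 4 of 10 neutrophil markers (Ctsg, Prtn3 and Mpo among them), 2 of 6 B cell markers, 2 of 6 macrophage and monocyte markers, 2 of 4 tested megakaryocyte markers, 2 of 4 stem and progenitor markers, 1 of 4 eosinophil markers, 1 of 5 dendritic cell markers (Zbtb46) and 1 of 4 NK cell markers (Eomes). Of all genes tested, 3.24% were called higher. The dendritic cell marker Xcr1 was lower in Aim2-/- cells and not called. The NK cell markers Ncr1, Klrb1c and Gzma were not called either, so the NK cell call rests on Eomes alone. The edgeR test called 0 of 7 erythroid, 0 of 6 CD4 T cell and 0 of 2 CD8 T cell markers, with 5, 2 and 0 at an unadjusted p under 0.05. Like those of the list above, the calls changed when single mice were left out: 802 genes in all were called at 0 h, but 30 without WT mouse 3, 37 without WT mouse 4, 160 without Aim2-/- mouse 1, 125 without Aim2-/- mouse 4, 2139 without Aim2-/- mouse 2 and 904 without the mouse labelled WT 1. The summed CPM of the neutrophil markers ranged from 129.9 to 363 in Aim2-/- and from 32.8 to 34.6 in WT libraries at 0 h, and that of the 8 members from 86.2 to 184 and from 30.3 to 35.9. At 24 h the neutrophil sum ranged from 14.8 to 120.3 CPM in Aim2-/- and from 4.01 to 5.34 CPM in WT libraries, and the members' sum from 71.0 to 256 and from 13.8 to 28.9 CPM. The part of these cell types in the members' difference was not tested.

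The genes most like the members were ranked by Pearson r, over the 24 libraries, with the mean standardised level of the members, both as deviations from the mean of the time point. The libraries come from 6 mice, and the score includes the genotype difference used to choose the members. Genes that differ between the genotypes therefore rank high. The 10 highest were Ctsg (0.988), Ms4a3 (0.987), Mpo (0.985), Rab44, Prg2, Napsa, Slpi, Lyn, Csf2rb and Emilin2 (0.971), and the median over all ranked genes was 0.136. Within the 12 Aim2-/- libraries, from 3 mice, the r of these 10 genes lay between 0.939 (Napsa) and 0.997 (Ms4a3). Ctsg, Mpo and Prg2 encode granule proteins of neutrophil and eosinophil precursors, and Ms4a3 marks granulocyte and monocyte progenitors. Ctsg measured 18.5 CPM in Aim2-/- and 2.42 CPM in WT cells at 0 h, and 15.2 against 1.09 CPM at 24 h. Mpo went from 125.9 to 25.4 CPM in Aim2-/- cells over the same time.

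Transcripts for growth factors of these lineages changed over time. IL-3 and GM-CSF are products of activated T cells that sustain basophils, and Il3 and Csf2 rose between 0 and 24 h in both genotypes (Csf2 by 3.81 ± 0.56 in WT and 4.47 ± 0.55 in Aim2-/- cells), while Kitl, the KIT ligand, fell (edgeR adjusted p = 0.00116 and 0.0342). Kitl had at most 16 counts in a library, and its fall in Aim2-/- cells was lost in at least 1 alternative, with an adjusted p of up to 0.235. Between genotypes the edgeR test called 0 of these 3 at 0 h, with 0 at an unadjusted p under 0.05. Of 8 cytokine and chemokine genes that T cells share with basophils and mast cells, 6 rose in WT and 7 in Aim2-/- cells by 24 h, where 36.6% and 36.8% of all genes rose. Between genotypes Il6 was called higher in Aim2-/- cells at 0, 6 and 24 h (edgeR adjusted p = 0.0357, 0.0183 and 0.0361), Ccl3 was called higher at 0 h and Tnf lower at 6 h. Each of these 5 calls was lost in at least 1 alternative, with adjusted p of up to 0.138, 0.0831 and 0.369 for Il6, 0.33 for Ccl3 and 0.083 for Tnf.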

How the data were processed

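RNA of splenic CD4+ T cells was sequenced from TruSeq stranded mRNA libraries in single-end reads. Per the labels and methods, the authors aligned reads to mouse GRCm38 (Ensembl annotation) with STAR and deposited raw counts per gene. The STAR version and the strand setting of the counting are not given in the sources used here. Antisense overlaps and paralogs (Mcpt, tryptase and haemoglobin genes) may therefore share reads.

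From these counts, genes kept by filterByExpr (minimum count 10) were normalised by TMM and fitted in edgeR 4.0.16 (R 4.3.3; limma 3.58.1, DESeq2 1.42.0) with 1 mean per genotype and time over all 24 libraries, quasi-likelihood tests and Benjamini-Hochberg adjustment at 0.05. The standard error of a log2 difference is its size divided by the root of F. The spread behind it is estimated over all groups, and is not that of the mice compared alone. Libraries of a mouse entered this fit as independent. The procedure was tested on simulated data, in which the libraries were drawn independently. That test therefore cannot check how the likeness of libraries of a mouse affects the calls. CPM used TMM-scaled totals, and log2 CPM a prior count of 2. Correlations used log2 CPM. Symbols were found for 54409 of 54446 identifiers, and lengths came from GENCODE M21 (GRCm38). Floors and intervals cover counting error only.

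The members and gene lists were chosen with earlier results of these data known. Named were Aim2, the members, called or near-absent genes of the other list (up to 4 each way), up to 2 each way of every other list, and the 10 genes most like the members. Libraries of a mouse share its number in the labels: their deviations from group means correlated between 0.097 and 0.517 (36 pairs), against -0.408 to 0.0866 (72 pairs) for other mice of the genotype, so the mouse was used as a block for time comparisons as an alternative. No 2 libraries of a group were duplicates (chi-square per degree of freedom 7.14 or more over 24 pairs). Each genotype and time had 3 mice. Near-absent means at most 3 counts in every library, and genes outside this rule are named as such in the text. Alternatives were other scalings, tests, filters and sample sets, and each mouse left out.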

Additional observations from a re-analysis of the deposited data

How the results depend on the processing

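The counts of called genes in the list of 31 depended on the setting between genotypes and less so over time. DESeq2 called 9, 5 and 10 at 0, 3 and 24 h, and 8 at 6 h, against 5, 0, 2 and 7 in edgeR. Without a filter on low counts 11, 8 and 11 were called at 0, 3 and 24 h, and 14 in the WT time comparison. At 24 h limma-voom called 0 and a fit of only the 2 groups 0. With the mouse number as a replicate block over all libraries, 14, 12, 13 and 14 were called at 0, 3, 6 and 24 h. Only numbers 1 and 4 occur in both genotypes, and same-numbered libraries of different genotypes correlated between -0.149 and 0.294. The mouse as a replicate block gave 16 in place of 8 for Aim2-/- cells over time and 13 in place of 9 for WT cells. Leaving out 1 mouse, the counts ranged from 0 to 12 at 0 h, 0 to 8 at 3 h, 0 to 11 at 6 h and 0 to 14 at 24 h. Over time they stayed at 9 or 10 for WT cells and between 6 and 9 for Aim2-/- cells. The cause of these changes was not tested. The other settings kept each count within 1.5 times. No called gene of any list changed direction in 1714 alternative values, of which 293 no longer passed the threshold. Of 143 called combinations of gene and comparison, 64 passed it in every alternative. All of these compared 24 h with 0 h. Every call between genotypes was lost in at least 1 alternative. The members' genotype differences kept their sign in the 11 alternatives computed for them. These left out the filter on mean CPM, the fit of only the 2 groups and the blocks. The members were chosen for this difference, so the kept sign is no test. Over time the sign of Cpa3 in Aim2-/- cells turned without mouse 1. Depth limits Fcer1a at 0, 3 and 6 h and Alox5 at 0 and 3 h, where WT libraries had 1 to 8 counts.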
